A study of Mus musculus with 8 samples.

Results

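Saa1, Saa3, Ptx3 and Hp encode soluble proteins of the acute-phase response. They were taken as the probe sets that the platform annotation pairs with 1 of these symbols and no other, and 6 of the 34945 probe sets with a single symbol met this rule, for 4 of 18193 genes. The genes were selected on their differences between peptidoglycan (PGN) and unstimulated arrays in these data, so their PGN values below are a description and carry no p-value. CD11b+ cells, the myeloid cells that carry the integrin alpha M subunit, came from NOD.Idd3 and NOD mice, and each strain was incubated for 4 h at 37 °C with PGN at 5 µg/ml or in medium alone. The groups were NOD.Idd3 with PGN, unstimulated NOD.Idd3, NOD with PGN and unstimulated NOD, with 2 arrays in each. NOD mice develop autoimmune diabetes, and NOD.Idd3 is the congenic strain that differs at the Idd3 locus on chromosome 3, so all groups share the NOD background. The sources used here do not state the tissue, the age of the mice or whether animals were pooled.

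The acute-phase response is the change in plasma proteins that follows infection or injury, driven mainly by IL-6, IL-1 and TNF acting on the liver. Serum amyloid A proteins are small apolipoproteins of high-density lipoprotein, and in the mouse Saa1 and Saa2 are the main liver forms, while Saa3 is made largely outside the liver, by macrophages and adipose tissue among others. Pentraxins are ring-shaped pattern recognition molecules that bind microbes and complement. The short pentraxins CRP and serum amyloid P come from the liver, and the long pentraxin PTX3 is made locally by myeloid, endothelial and stromal cells. Haptoglobin binds free haemoglobin, and neutrophils also store it in their granules.

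The arrays carried the signal of myeloid cells. The neutrophil gene S100a8 (group means 14.32 to 14.52, log2 intensity) and the macrophage gene Adgre1 (12.54 to 12.92) were bright in every group. Itgam, the gene of CD11b itself, had group means from 8.12 to 8.88. Not all markers were bright, with the neutrophil gene Elane at 5.06 to 5.82 and the macrophage gene Mertk at 5.94 to 7.50. The T cell gene Cd3d, at 10.32 to 12.13, was brighter than Itgam. Median log2 intensity per array lay between 6.38 and 6.65, and Pearson's r across genes was 0.985 to 0.991 between the arrays of each group. The labels call the arrays biological replicates without saying what was separate, so the p-values reflect no more than the spread among these arrays, which may be technical, and their number limits the precision.

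All 4 genes were higher on every PGN array than on any unstimulated array. Averaged over strains, the difference was 4.86 ± 0.23 for Ptx3 (log2, limma SE, 4 arrays per condition), 4.24 ± 0.26 for Saa1, 1.78 ± 0.40 for Saa3 and 0.59 ± 0.19 for Hp, which are 29.0-fold, 18.96-fold, 3.43-fold and 1.51-fold. Among 18193 genes, 8.6% had PGN arrays that lay wholly above the unstimulated arrays, and 4.86% passed limma as higher at a Benjamini-Hochberg adjusted p under 0.05. Those wholly below were 9.41%, and 11.3% passed in either direction. An unadjusted p under 0.05 was found for 4555 of 18193 genes. In an alternative fit the replicate number was added as a block, called the replicate block below. Within 1 strain, 3.14% of genes passed in NOD.Idd3 (1.89% higher, 1.25% lower) and 3.94% in NOD (1.81% higher, 2.13% lower). Since the 4 genes were selected on these contrasts, no call is given for them. In bulk cells, more cells that make a transcript and more transcript per cell cannot be told apart.

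**Figure D1:**
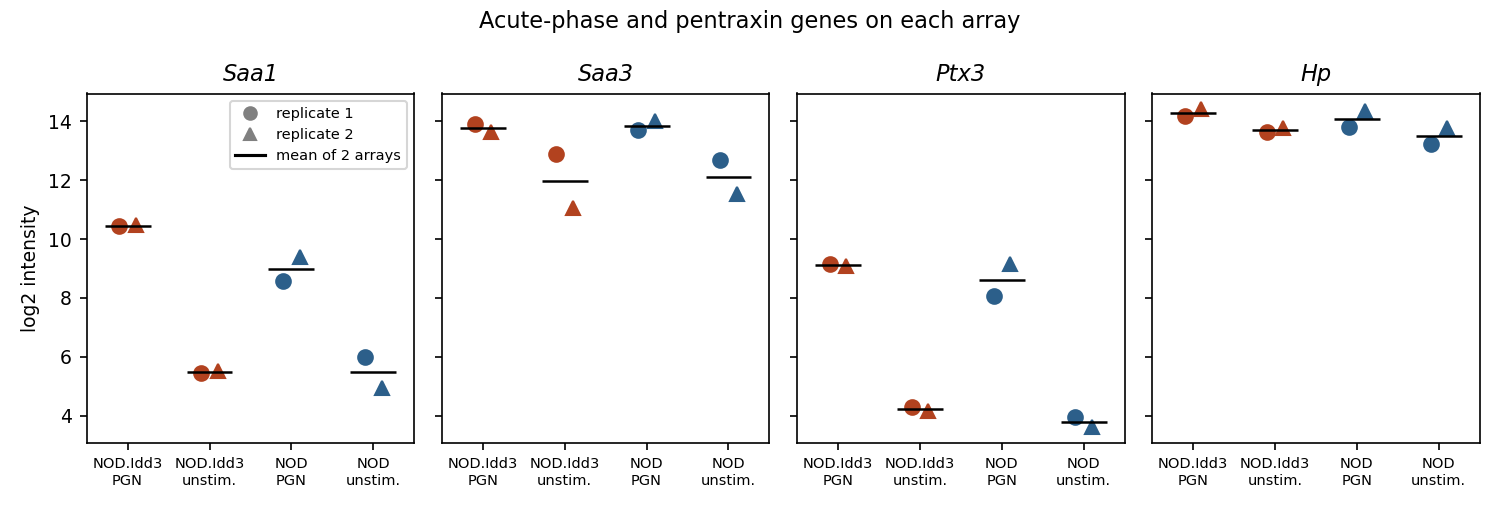
Log2 intensity of the probe set with the highest mean for each gene (vertical axis) on the 8 arrays, by strain and treatment, with circles for replicate 1, triangles for replicate 2 and lines for the mean of 2 arrays. Saa1 and Ptx3 were above 8 on all PGN arrays and below 6 on all unstimulated arrays, whereas Saa3 and Hp were already above 11 without PGN.

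Saa1, which encodes a main acute-phase serum amyloid A, was measured by a pair of probe sets. The brighter had log2 intensities of 10.44 and 10.47 in PGN-treated NOD.Idd3 cells, against 5.44 and 5.53 in unstimulated NOD.Idd3 cells. In NOD cells it had 8.58 and 9.39 with PGN, against 5.99 and 4.96 unstimulated. The PGN arrays of NOD.Idd3 were thus the highest, those of NOD came next without overlapping them, and the unstimulated arrays of the strains overlapped. On the linear scale the values were 1393 and 1419 with PGN against 43.3 and 46.1 unstimulated in NOD.Idd3, and 383.5 and 671.4 with PGN against 63.6 and 31.1 unstimulated in NOD.

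The dimmer Saa1 probe set gave the same order of the PGN arrays. It had 7.49 and 7.18 in PGN-treated NOD.Idd3 cells, against 3.005 and 2.99 unstimulated, and 5.92 and 6.76 in PGN-treated NOD cells, against 3.71 and 3.01 unstimulated. Its unstimulated values lay below the 25th percentile of genes on every array (4.28 to 4.57), so the size of its PGN difference is limited by background.

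The signal could not be assigned to Saa1 alone. The platform annotation gives the brighter probe set to Saa1, while the transcript it was designed from is listed for Saa2 in RefSeq, and its suffix _s_at marks probe sets that match transcripts of more than 1 gene. Saa2 has its own probe set, whose suffix _x_at marks probes open to cross-hybridisation. It had 7.75 and 7.43 in PGN-treated NOD.Idd3 cells, against 4.44 and 4.80 unstimulated, and 6.50 and 6.47 in PGN-treated NOD cells, against 5.11 and 4.06 unstimulated. Saa2 passed for the averaged PGN effect in limma (2.44 ± 0.23, adjusted p = 0.000697). The dimmer Saa1 probe set, whose source transcript is listed for Saa1, carries neither suffix.

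Saa3, Saa4, Saa1 and Saa2 stand next to each other in this order on chromosome 7 in the RefSeq annotation of GRCm38.p6, with no other coding gene between them. The 250 bases before the RefSeq start are shown for Saa1 and Saa2, to show how alike these neighbours are, and for Saa3 and Ptx3, which were higher with PGN as well. RefSeq promoters (GRCm38.p6) were held for 3 of the 4 genes, and Hp was not among them. Sequences run 5′ to 3′ on the strand of the gene, and capitals mark matches to the C/EBP-type motif TTNNGNAA on either strand.
Saa1, chr7:46742981-46743230, strand -: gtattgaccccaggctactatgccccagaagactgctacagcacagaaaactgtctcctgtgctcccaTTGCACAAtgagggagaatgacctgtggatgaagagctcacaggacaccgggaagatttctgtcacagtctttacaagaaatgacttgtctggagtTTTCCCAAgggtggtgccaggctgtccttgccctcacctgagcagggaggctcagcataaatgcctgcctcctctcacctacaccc
Saa2, chr7:46751583-46751832, strand +: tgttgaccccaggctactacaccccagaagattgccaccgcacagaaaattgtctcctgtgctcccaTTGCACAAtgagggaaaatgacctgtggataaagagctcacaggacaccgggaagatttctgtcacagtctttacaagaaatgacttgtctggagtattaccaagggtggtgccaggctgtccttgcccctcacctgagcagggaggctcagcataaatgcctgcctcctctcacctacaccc
Saa3, chr7:46715677-46715926, strand -: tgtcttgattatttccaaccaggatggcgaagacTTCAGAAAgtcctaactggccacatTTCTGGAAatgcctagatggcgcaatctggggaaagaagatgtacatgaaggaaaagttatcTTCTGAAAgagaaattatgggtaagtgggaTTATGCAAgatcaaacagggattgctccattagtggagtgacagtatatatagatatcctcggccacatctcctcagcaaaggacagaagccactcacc
Ptx3, chr3:66219637-66219886, strand +: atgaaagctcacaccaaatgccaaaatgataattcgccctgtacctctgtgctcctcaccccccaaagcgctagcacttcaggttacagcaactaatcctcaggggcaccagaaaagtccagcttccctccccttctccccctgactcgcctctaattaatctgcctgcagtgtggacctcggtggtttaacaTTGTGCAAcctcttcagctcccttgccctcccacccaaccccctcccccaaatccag

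The Saa1 and Saa2 windows were identical at 94.8% of aligned positions (238 of 251), against 48.5% for Saa1 and Saa3. Each of the 4 windows held at least 1 C/EBP-type match. Saa1 and Saa2 shared TTGCACAA, Saa3 had 4 matches, and Ptx3 had TTGTGCAA at positions -57 to -50 from its start. Such a match is common, since 36.8% of 32851 windows of the same length held 1. No window held an exact match to the 10-base NF-kB consensus, which was found in 3.90% of all windows. None held the STAT motif TTCNNNGAA (7.02%) or the letters TATAAA (12.4%) either, with both strands searched for each. Sites that depart from these letters would be missed. These matches describe letters, not binding.

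Saa3, the serum amyloid A gene expressed by macrophages, was already bright without PGN. It had 13.92 and 13.64 in PGN-treated NOD.Idd3 cells, against 12.89 and 11.04 unstimulated, and 13.70 and 14.00 in PGN-treated NOD cells, against 12.70 and 11.52 unstimulated. The PGN arrays lay close together, while the unstimulated arrays differed by replicate number in both strains, with replicate 1 above replicate 2. Within replicate 1 the PGN difference was 1.03 in NOD.Idd3 and 1.00 in NOD, and within replicate 2 it was 2.60 and 2.48. Leaving out replicate 2 of unstimulated NOD.Idd3 lowered the NOD.Idd3 difference to 0.89, against 1.82 with all arrays, and leaving out replicate 1 raised it to 2.74. In NOD the difference was 1.15 without replicate 2 of the unstimulated arrays, against 1.74 with all. The highest values of any gene on these arrays were 14.53 to 15.17, so the PGN values of Saa3 stood where a rise can be compressed.

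Ptx3, the long pentraxin gene, was near background without PGN. The brighter of its probe sets had 9.15 and 9.10 in PGN-treated NOD.Idd3 cells, against 4.30 and 4.16 unstimulated, and 8.08 and 9.15 in PGN-treated NOD cells, against 3.96 and 3.62 unstimulated. Linear values were 568.1 and 548.7 with PGN against 19.6 and 17.9 unstimulated in NOD.Idd3, and 270.9 and 566.9 with PGN against 15.6 and 12.3 unstimulated in NOD. The PGN arrays of the strains overlapped, and the low array was replicate 1 of NOD. Its averaged difference ranked 7 among 18193 genes, with the size again limited by background.

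The other Ptx3 probe set did not share this pattern. It had 4.73 and 5.05 in PGN-treated NOD.Idd3 cells, against 4.24 and 4.53 unstimulated, and 4.87 and 4.67 in PGN-treated NOD cells, against 4.76 and 4.26 unstimulated. The averaged PGN difference was 0.38 ± 0.18, against 4.86 for the brighter one, and the arrays overlapped between conditions. RefSeq lists the source transcript of the brighter probe set for Ptx3, and that of the dim one matched none of the RefSeq transcripts used here. The mean of these 2 probe sets gave an averaged PGN difference of 2.62.

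Hp, the haptoglobin gene, had the smallest PGN difference of the 4 and was bright on every array. It had 14.16 and 14.40 in PGN-treated NOD.Idd3 cells, against 13.62 and 13.77 unstimulated, and 13.82 and 14.34 in PGN-treated NOD cells, against 13.22 and 13.75 unstimulated. The PGN difference was alike in the 4 pairs of arrays with the same strain and replicate number (0.54, 0.64, 0.60 and 0.59), while replicate 2 stood above replicate 1 in every group. At this level, near the highest values of the arrays, a larger rise could be compressed. Hp is stored in neutrophil granules, and of 16 measured granule genes from a list of 17, none passed as higher and 2 fell, the metalloproteinase genes Mmp9 (-1.74 ± 0.19, adjusted p = 0.00102) and Mmp8 (-1.16 ± 0.17, adjusted p = 0.00376). The list had a median of -0.19, against 0.05 over all genes. Lcn2, a granule and acute-phase gene, stood at 0.07 ± 0.14 (adjusted p = 0.803). It lay at 14.28 to 14.66 on every array, where a rise could be compressed as well. A further granule gene was called lower in 6 of 16 alternatives, under the replicate block Cd177 (-0.80 ± 0.22, adjusted p = 0.0505, against 0.0163 under the block). An unadjusted p under 0.05 was found for 4 of the 16 granule genes, against 4555 of 18193 over all genes.

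**Figure D2:**
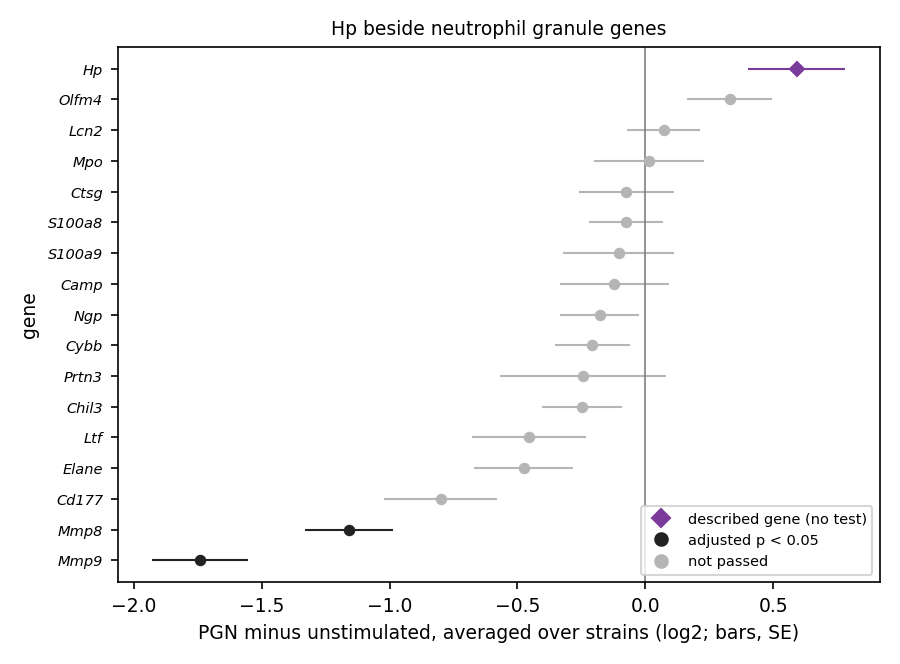
PGN minus unstimulated difference averaged over strains (horizontal axis, log2, bars are limma SE) for Hp, as a diamond that carries no test, and for 16 neutrophil granule genes, black where they passed and grey where they did not. Hp stood at 0.59, and the granule genes lay between -1.74 and 0.33.

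The next question was whether the PGN response of these genes differed between the strains. For Saa1 it was 4.98 ± 0.37 in NOD.Idd3 and 3.51 ± 0.37 in NOD (2 arrays per group), a difference of 1.46 ± 0.52 (NOD.Idd3 minus NOD), or 2.76-fold. The dimmer Saa1 probe set gave 1.36 ± 0.46, and Saa2 gave 1.07 ± 0.47 (adjusted p = 1.00). Among the unstimulated NOD arrays, omitting replicate 1 put the Saa1 difference at 0.95 and omitting replicate 2 put it at 1.98. For Ptx3 the responses were 4.90 ± 0.33 in NOD.Idd3 and 4.82 ± 0.33 in NOD, for Saa3 1.82 ± 0.57 and 1.74 ± 0.57, and for Hp 0.59 ± 0.27 and 0.59 ± 0.27. Their differences were 0.07 ± 0.46, 0.08 ± 0.80 and -0.01 ± 0.38. These values reuse the PGN effects on which the genes were picked and are a description.

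In this contrast limma called 0 of 18193 genes (0%), with 314 at an unadjusted p under 0.05 (1.73%), and 0 with the replicate block. Within replicate numbers, the Saa1 response was 5.01 in NOD.Idd3 and 2.59 in NOD for replicate 1, and 4.95 and 4.43 for replicate 2. The larger gap between strains was therefore in replicate 1. For Ptx3 it was 4.85 in NOD.Idd3 and 4.12 in NOD for replicate 1, and 4.94 and 5.52 for replicate 2, so that the order of the strains turned round.

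**Figure D3:**
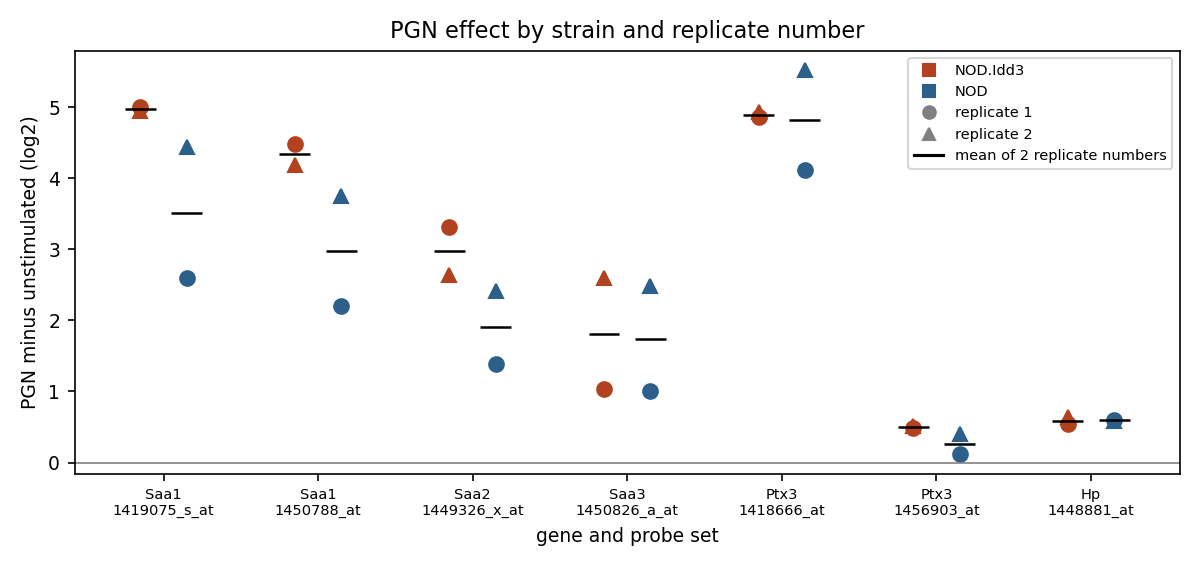
PGN minus unstimulated log2 difference (vertical axis) for each probe set of the 4 genes and of Saa2, by strain and replicate number, with lines for the mean of both replicate numbers. NOD.Idd3 points were above NOD points of the same replicate number for the Saa1 and Saa2 probe sets, and the means of the strains were close for Saa3, for Hp and for the brighter Ptx3 probe set.

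The strain difference averaged over both conditions does not reuse the PGN effects, and was tested. Saa1 was at 7.97 in NOD.Idd3 and 7.23 in NOD (means of 4 arrays each), a difference of 0.74 ± 0.26 (adjusted p = 0.733 in limma). Within conditions the difference was 1.47 ± 0.37 with PGN and 0.01 ± 0.37 unstimulated. On this brighter probe set, Saa1 was higher in NOD.Idd3 in 3 of 4 pairs of arrays with the same condition and replicate number. The dimmer Saa1 probe set, whose source transcript is listed for Saa1, gave a smaller averaged difference of 0.32 ± 0.23. It was at 1.00 ± 0.33 with PGN and -0.36 ± 0.33 unstimulated. Ptx3 differed by 0.47 ± 0.23 (3 of 4 pairs, adjusted p = 0.799 in limma), and by -0.003 ± 0.18 on its other probe set. Hp differed by 0.20 ± 0.19 (4 of 4 pairs, adjusted p = 0.901 in limma). The Hp pairs were at 0.35 with PGN and 0.40 unstimulated in replicate 1, but at 0.06 and 0.01 in replicate 2. Saa3 differed by -0.11 ± 0.40 (2 of 4 pairs higher, adjusted p = 0.974 in limma). How many of all genes had such pairs was not counted. None of the 4 passed, nor did any of 18193 genes (0%), with 1175 at an unadjusted p under 0.05 (6.46%). With the replicate block 27 genes were called, none of them among the 4. Ptx3 lies on chromosome 3, which also carries Il2 of the Idd3 locus, with 112 coding genes between them in RefSeq.

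RNA quality and markers of other cells were read beside the strain values. For Gapdh, the 3′ control probe set exceeded the 5′ one by 0.72 to 0.80 (log2) on NOD.Idd3 arrays and by 0.88 to 1.16 on NOD arrays. For Actb the strains overlapped, at 0.22 to 0.46 on NOD.Idd3 arrays and 0.43 to 0.58 on NOD arrays. The summed linear intensity of 4 measured B cell markers (of 5 listed) was 504 to 758 in PGN-treated and 602 to 1078 in unstimulated NOD.Idd3 cells, against 1000 to 1685 in PGN-treated and 1431 to 3645 in unstimulated NOD cells. No B cell marker passed for strain in limma (Ms4a1 at -1.71 ± 0.34, adjusted p = 0.345, and Pax5 at 0.03 ± 0.18, adjusted p = 0.986). The 8 macrophage markers summed to 50796 to 52389 in PGN-treated and 48950 to 52535 in unstimulated NOD.Idd3 cells, against 56556 to 60460 in PGN-treated and 54471 to 55187 in unstimulated NOD cells, with no overlap between strains. Of these markers, Mrc1 was at -1.56 ± 0.17 (NOD.Idd3 minus NOD, adjusted p = 0.0656), Mertk at -1.13 ± 0.19 (adjusted p = 0.199) and Cd163 at -1.91 ± 0.28. Ccr2 was at 0.43 ± 0.25, and Csf1r, Cd68, Cd14 and Adgre1 lay between -0.24 and -0.05. In the list of pentraxin receptors and PTX3 partners, C1qb was at -1.37 ± 0.15 (adjusted p = 0.0656) and Fcna at -1.72 ± 0.26 (adjusted p = 0.156). Fcgr1 and Fcgr4 of that list were at 0.54 ± 0.21 and 0.51 ± 0.14. None of these genes passed in limma. Apart from Cd163, they were named after their values were seen. The part of RNA quality and of these cells in the strain values of the 4 genes was not tested.

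Markers of cells that are known sources of these proteins were read beside the PGN effect. The 7 hepatocyte markers summed to 239 to 262 in PGN-treated against 230 to 249 in unstimulated NOD.Idd3 cells, and to 276 to 325 against 204 to 306 in NOD cells, with Alb, the albumin gene, at group means of 4.86 to 5.57 on the log2 scale. The 6 stromal markers summed to 117 to 125 against 112 to 119 in NOD.Idd3 and 127 to 145 against 118 to 138 in NOD, and at least 4 of the 6 were below the 25th percentile of genes in every group. The 4 endothelial markers summed to 417 to 451 against 193 to 229 in NOD.Idd3 and 275 to 301 against 171 to 193 in NOD. Kdr (1.36 ± 0.23) and Pecam1 (0.73 ± 0.17) rose, while Cdh5 and Tek, at -0.04 ± 0.15 and -0.09 ± 0.20, did not pass and had group means of 4.25 to 4.42 and 3.05 to 3.66. The 4 measured T cell markers of 5 listed summed to 1946 to 2324 against 4284 to 5364 in NOD.Idd3 and 1376 to 1652 against 3383 to 5973 in NOD. Of these, Cd3d fell (-1.48 ± 0.21, adjusted p = 0.00334), and Cd3g (-0.92 ± 0.28), Cd3e (-0.18 ± 0.17) and Cd8a (-0.02 ± 0.16) did not pass. The part of these cells in the PGN values was not tested.

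Other acute-phase genes were then read from lists chosen with earlier results of these arrays known. The list of other acute-phase genes was not limited to plasma proteins. Of 25 measured genes from this list of 32, 6 rose, none fell and 19 did not pass. The median was 0.17, against 0.05 over all genes, of which 4.86% passed as higher and 6.4% as lower. Hamp, the gene of the iron hormone hepcidin, rose by 4.12 ± 0.30 (adjusted p = 0.000172 in limma). Its log2 values were 8.61 and 9.21 in PGN-treated NOD.Idd3 cells, against 4.42 and 4.61 unstimulated, and 8.25 and 9.53 in PGN-treated NOD cells, against 5.35 and 4.73 unstimulated. Every PGN array of Hamp thus stood above the unstimulated ones, with the low PGN array again replicate 1 of NOD. Its unstimulated values lay near the 25th percentile of genes, so the size is limited by background, and its probe set carries the suffix _x_at.

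Steap4, a metalloreductase gene, rose by 2.08 ± 0.43, and Slc39a14, which encodes the zinc and iron importer ZIP14, by 2.08 ± 0.17. Orm1, the gene of alpha-1-acid glycoprotein, rose by 2.01 ± 0.43 (adjusted p = 0.0185 in limma). Orm1 was one of the fixed genes, while Hamp, Steap4 and Slc39a14 were named for the size of their change. The other 2 that rose, also named after their values were seen, were the ferroxidase gene Cp (1.57 ± 0.36) and the complement factor B gene Cfb (1.56 ± 0.30). The number that rose was smaller in 8 of 16 alternatives, down to 4 without replicate 2 of unstimulated NOD or replicate 1 of unstimulated NOD.Idd3, and 2 genes of the list passed as lower without replicate 1 of unstimulated NOD. None of 7 measured negative acute-phase genes passed, and none had an unadjusted p under 0.05. Alb was at 0.40 ± 0.21 (adjusted p = 0.271).

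Among 7 measured serum amyloid A and pentraxin genes beside the 4, Saa2 rose and the other 6 did not pass, while 4.86% of all genes passed as higher. Saa4, the constitutive serum amyloid A gene, was at 0.07 ± 0.14 (adjusted p = 0.806), with 3.83 to 4.22 on the 8 arrays, below the 25th percentile of genes. The short pentraxin genes Crp and Apcs were at 0.00 ± 0.19 (adjusted p = 0.992) and 0.08 ± 0.16 (adjusted p = 0.810), with group means of 2.74 to 2.93 and 3.43 to 3.63, below the 25th percentile of genes on the arrays. Without _x_at and _s_at probe sets no gene of this list passed as higher.

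**Figure D4:**
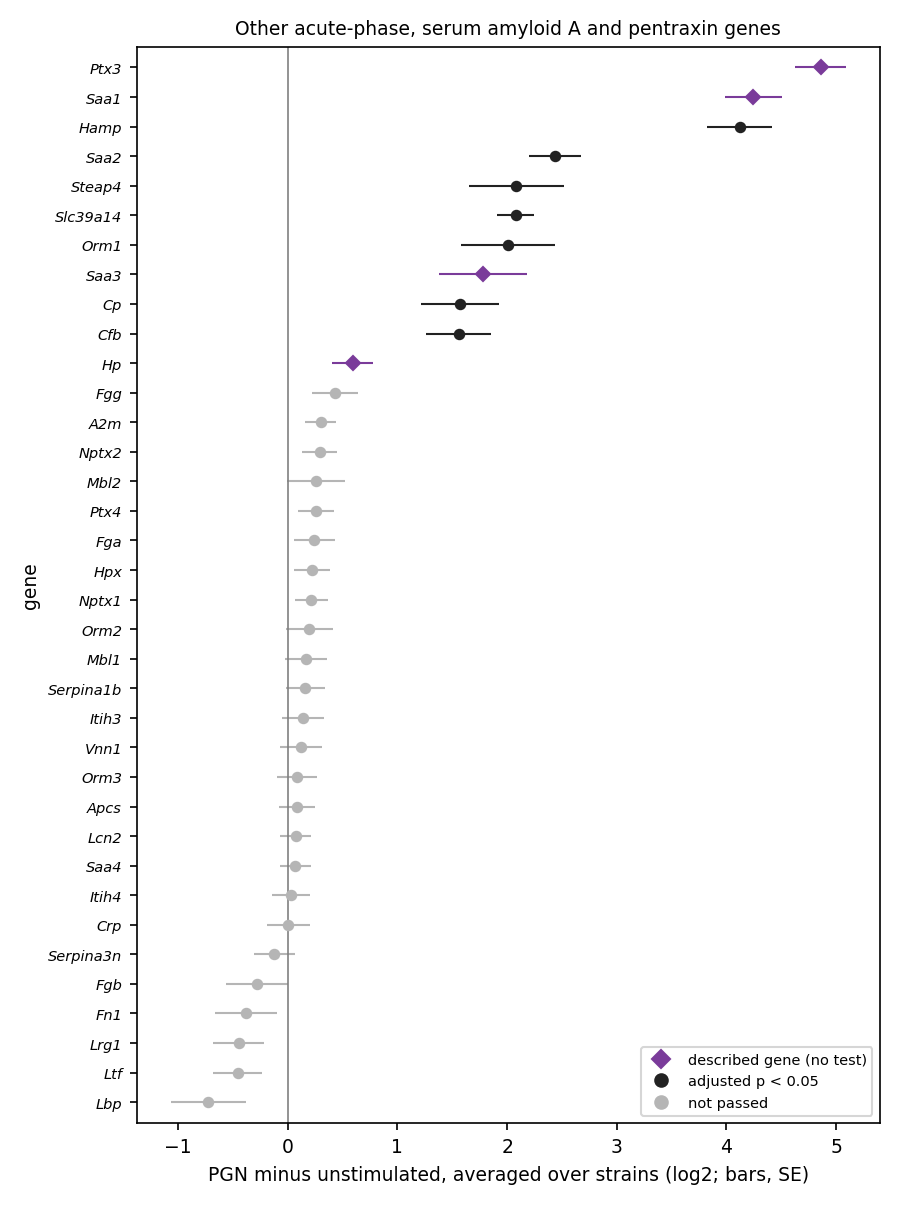
PGN minus unstimulated difference averaged over strains (horizontal axis, log2, bars are limma SE) for Saa1, Saa3, Ptx3 and Hp, as diamonds that carry no test, and for the other acute-phase, serum amyloid A and pentraxin genes, black where they passed and grey where they did not. The 7 genes that passed lay between 1.56 and 4.12, and those that did not lay between -0.73 and 0.43.

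Genes of cytokines that induce acute-phase proteins, and of their receptors, were among those that rose. Of 16 listed genes, which also include Il10 and the IL-1 antagonist gene Il1rn, 8 rose and 1 fell (median 0.85). Over all genes 4.86% passed as higher and 6.4% as lower. With the replicate block 10 rose, and those gained were Il1rn and Tnfrsf1b. Il10, the gene of an anti-inflammatory cytokine, rose by 6.52 ± 0.28, Il1r1, the IL-1 receptor, by 4.20 ± 0.31, and Il1a by 3.63 ± 0.26. Il6, the main inducer in liver, rose by 2.73 ± 0.38 (adjusted p = 0.00299). By strain it was at 1.88 ± 0.54 in NOD.Idd3 (adjusted p = 0.118 in limma) and 3.57 ± 0.54 in NOD (adjusted p = 0.0114 in limma). The difference of -1.70 ± 0.76 (NOD.Idd3 minus NOD) did not pass. Il1b was at 0.12 ± 0.16 (adjusted p = 0.706), with group means of 14.16 to 14.50, near the highest values of the arrays, where a rise can be compressed. The gene that fell was Il6ra, the IL-6 receptor (-0.66 ± 0.15, adjusted p = 0.0275), named after its value was seen, and its call was lost in 7 of 16 alternatives.

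Of 14 measured transcription factor and feedback genes 7 rose and 1 fell (median 0.87), while 4.86% of all genes passed as higher and 6.4% as lower. Socs3, an inhibitor of IL-6 signalling, rose by 2.42 ± 0.29, the NF-kB subunit gene Rel by 1.82 ± 0.14, Irf4 by 1.67 ± 0.36 and Zc3h12a, whose product degrades cytokine mRNAs, by 1.35 ± 0.29. Stat3, which transmits the IL-6 signal, rose by 0.76 ± 0.16 (adjusted p = 0.0160). The C/EBP genes gave Cebpb at 0.61 ± 0.22 (adjusted p = 0.126, against 0.0286 under the replicate block) and Cebpd at -0.13 ± 0.26 (adjusted p = 0.808). Nfkbiz, which encodes IkB-zeta, was at 0.97 ± 0.31 (adjusted p = 0.0853, and 0.0118 with the replicate block). Cebpa fell (-0.60 ± 0.15, adjusted p = 0.0366), named after its value was seen. Leaving out replicate 2 of unstimulated NOD.Idd3 lowered the number that rose to 4, and the fall of Cebpa was not called in 8 of 16 alternatives.

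Of 8 measured serum amyloid A receptor genes none rose and 1 fell (median -0.08). An unadjusted p under 0.05 was found for 3 of the 8, against 4555 of 18193 over all genes. The gene that fell was Scarb2, a scavenger receptor of the CD36 family (-1.12 ± 0.17, adjusted p = 0.00449). Fpr2, the formyl peptide receptor that binds serum amyloid A, was at 0.14 ± 0.17 (adjusted p = 0.664). A second gene passed as lower in 9 of 16 alternatives. Cd36, named after its value was seen, was at -1.54 ± 0.42 (adjusted p = 0.0503, against 0.0184 under the replicate block).

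Of 14 measured pentraxin receptors and PTX3 partners 2 rose and 1 fell (median -0.06), while 4.86% of all genes passed as higher and 6.4% as lower. In this list 3 of 14 had an unadjusted p under 0.05, against 4555 of 18193 over all genes. Tnfaip6, whose product binds PTX3 and hyaluronan, rose by 1.90 ± 0.37 (adjusted p = 0.0128), and Fcgr2b, an inhibitory Fc receptor, rose by 1.61 ± 0.26 (adjusted p = 0.00574). Has2, a hyaluronan synthase gene, fell by 1.72 on the log2 scale (SE 0.20, adjusted p = 0.00129). Only 1 of the pair that rose passed without replicate 2 of unstimulated NOD or of unstimulated NOD.Idd3.

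Of 9 measured haptoglobin and haem clearance genes none passed for the PGN effect, and none had an unadjusted p under 0.05 (median 0.11), although 1 passed as lower in 1 of 16 alternatives. Hmox1, haem oxygenase 1, was at 0.10 ± 0.16 (adjusted p = 0.737), and Slc40a1, the iron exporter ferroportin, was at -0.73 ± 0.37 (adjusted p = 0.270). Cd163, the receptor that takes up the complex of haptoglobin with haemoglobin, was at 0.19 ± 0.28 with PGN (adjusted p = 0.735). Cd163 was lower in NOD.Idd3 than in NOD on every array, at 5.71 to 6.33 in NOD.Idd3 and 7.40 to 8.63 in NOD. The strain difference was -1.91 ± 0.28 and did not pass (adjusted p = 0.156 in limma, and 0.0656 with the replicate block). Among all genes, 1.77% had NOD.Idd3 arrays wholly below NOD arrays and 1.08% wholly above.

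The genes nearest to each of the 4 in pattern were found as those with the smallest root mean square difference over the 8 arrays after each gene was centred on its own mean. For Saa1 these were Il1r1 (0.45, log2), Sphk1 (0.45) and Ptx3 (0.52). For Ptx3 they were Edn1 (0.44), Il1f6 (0.44) and Tnfsf9 (0.46). For Saa3 they were Pim2 (0.22), Exoc3l4 (0.23) and Gdpd1 (0.23), and for Hp Atp11a (0.08), Kif1c (0.08) and Hk1 (0.09). Within the 4, Saa1 and Ptx3 were closest at 0.52 and Ptx3 and Hp farthest at 2.16. Genes of small change come nearer to each other on this measure, as the values for Hp show.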

How the data were processed

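Expression was measured with biotin-labelled total RNA on 8 single-channel arrays, 2 in each of 4 groups taken from the sample labels. The deposited table gives 1 intensity value for each of 45101 probe sets on a linear scale (3.97 to 42906). RMA was used, per the submitters' processing notes. RMA usually gives log2 values, whereas these are linear, and no source states how they were converted. The sources used here do not state its version or chip definition. The log2 of each value was taken, with no further normalization or filter. Control probe sets (64), those with no symbol (9160) and those with several (932) were left out, and where a gene had several probe sets, the one of highest mean was used. Symbols were updated through gene IDs to RefSeq GRCm38.p6 for 34741 of 34945 probe sets.

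Group contrasts were fitted over all 18193 genes with limma 3.58.1 in R 4.3.3 (4 residual and 4.69 prior degrees of freedom), with Benjamini-Hochberg adjustment over all genes and a threshold of 0.05. Errors beside probe sets other than the representing ones come from the same fit over all 34945 probe sets. The members and lists were chosen with earlier results of these data known. Named genes were the members, 16 fixed genes and up to 4 of each list with the largest averaged PGN change among those that passed, or the smallest p where none did. Replicate numbers were taken as pairing the arrays, since replicate 1 arrays share a date in their names and the replicate 1 minus 2 differences were correlated across genes in all 6 pairs of groups (0.17 to 0.42). The fit reported has no such term, and the replicate block was an alternative. The other alternatives were the RR1 suffix of array names as a term, a variance trend, removal of genes under the 40th percentile, the mean of all probe sets, array weights, a quantile normalization on top of RMA, removal of _x_at and _s_at probe sets and leaving out each array. The fit was also run on simulated data with independent noise on each array. That simulation held no replicate effect, so it does not cover the correlated replicate differences seen here.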

Additional observations from a re-analysis of the deposited data

How the results depend on the processing

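The 4 genes gave 20 values (4 genes by 5 contrasts) that were recomputed under 16 alternatives. Of these 320 recomputed values, 15 changed sign, all in strain contrasts: 2 for the averaged strain difference of Saa3, and 3, 4 and 6 for the strain difference in response of Ptx3, Saa3 and Hp, whose reported values are within 0.1 of 0. The PGN differences kept their sign. Many of the 320 values could not move. The replicate block, the variance trend and the removal of dim genes leave every difference as it was in this balanced design. Leaving out an array of 1 strain does not touch the PGN difference of the other. With the mean of all probe sets, the Ptx3 PGN difference was 2.62 averaged, 2.70 in NOD.Idd3 and 2.54 in NOD, since the dim probe set is then averaged in. Without _x_at and _s_at probe sets, the Saa1 PGN difference was 3.66 averaged, 4.34 in NOD.Idd3 and 2.98 in NOD, since the dimmer probe set then stands for the gene. The replicate block, which cannot change a difference here, changed no call of the strain difference of the 4 genes (Saa1 0.74, adjusted p = 0.412 in limma). The replicate block raised the number of all genes called in the averaged PGN effect to 3082 in place of 2049. Within a strain it raised this number to 1207 in place of 572 in NOD.Idd3 and to 1586 in place of 717 in NOD.

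Leaving out 1 array at a time gave ranges of 2.995 to 4.03 for Saa1 and 4.29 to 5.36 for Ptx3 in NOD, and of 0.89 to 2.74 for Saa3 in NOD.Idd3. The strain difference in response ranged from 0.95 to 1.98 for Saa1, -0.46 to 0.61 for Ptx3, -0.85 to 1.00 for Saa3 and -0.27 to 0.26 for Hp. The averaged strain difference of Saa3 ranged from -0.57 to 0.35 and changed sign without replicate 1 of unstimulated NOD (0.19) or replicate 2 of unstimulated NOD.Idd3 (0.35). The cause was not tested. The number of genes called for the PGN effect also depended on the array left out. Counts over all genes were 1111 to 2139 averaged, 56 to 624 in NOD.Idd3 and 77 to 876 in NOD. With array weights 994 genes were called in NOD.Idd3 and 410 in NOD, and with the RR1 term 235 in NOD.Idd3. Intensities near background (Ptx3 and the dimmer Saa1 probe set, unstimulated) limit the sizes. Those near the top of the scale (Hp and Saa3) may limit them too, which was not tested.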
